A study of Homo sapiens with 4 samples.

Results

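The heterogeneous nuclear ribonucleoproteins (hnRNPs) and the general splicing regulators described here are 40 genes, taken by symbol from 11 families of RNA-binding proteins, of 40188 genes with a value in the series. The list names the genes and uses no measured value, and each symbol matched a single Ensembl gene ID. Levels are in cRPKM, a corrected RPKM, which is reads scaled to library total and to a length set per gene. Of the genes with a value, 12706 had a mean level of at least 1 cRPKM over the libraries and entered the comparisons. All 40 members were among them.

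Poly(A) RNA of HEK293, a human embryonic kidney line, was sequenced from stranded libraries. Its 4 groups are stable lines in which doxycycline switches on MSI1, SRRM4, SRRM3 or, as the control, an empty vector. Every line, the control included, received 1 µg/mL doxycycline for 24 h, and each group has 1 library. With 1 library a group no test across samples is possible, no spread between replicates can be given, and an effect of the transgene cannot be told apart from other differences between the lines. In bulk RNA, fewer expressing cells and less RNA per cell cannot be told apart either.

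hnRNPs are abundant nuclear proteins that coat transcripts as they are made, and many of them silence splice sites near the short sequences they bind. The MBNL, CELF, STAR, TIA, RBM and ESRP proteins act on smaller sets of exons, and shifts among them mark tissues and developmental stages. MSI1 is an RNA-binding protein of neural progenitors that recognises short motifs with the letters UAG. SRRM3 and SRRM4 are serine/arginine repetitive matrix proteins and act on the tiny exons of neurons. Many of the 40 genes control their own transcripts through alternatively spliced exons, but the values here are totals per gene and hold nothing on exon inclusion.

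Each induced gene was highest in its own library: MSI1 at 62.4 cRPKM against 8.38 in the empty vector, SRRM4 at 63.8 against 0.39, and SRRM3 at 38.5 against 0.49. Total counts ran between 60288244 and 63003121. Of 5 genes checked for HEK293, VIM was at 909 cRPKM or more in each library, INA, NEFM and LHX1 were detected throughout, and PAX2 was close to 1 cRPKM. Epithelial keratins and EPCAM were high in all libraries, with 5 of 5 epithelial genes at a mean of at least 1 cRPKM. The blood genes summed to between 0.23 and 0.76 cRPKM, with 4 of 6 under 0.1 cRPKM in every library. The fibroblast genes summed to between 3.63 and 4.62 cRPKM, nearly all of it COL1A1, with COL1A2 and DCN at 0. The neuronal genes summed to 0.29 cRPKM in MSI1, 1.70 in SRRM4, 1.41 in SRRM3 and 0.41 in the empty vector. The 13 mitochondrially encoded mRNAs took 1.02% of counts in MSI1, 0.891% in SRRM4, 1.28% in SRRM3 and 0.838% in the empty vector. Their part in the results below was not tested.

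Sequences are shown for some of the members described below. The first set is the densest stretch of UAG letters (written as TAG) in the 3' untranslated region (UTR), for some members that stood lower in the MSI1 library (HNRNPUL2, HNRNPD, HNRNPA2B1) and some that stood higher in it (MBNL2, HNRNPLL). These were chosen after seeing values and not by size of difference. CELF2 and HNRNPAB, not shown, stood further below the empty vector than HNRNPA2B1, with 11.2 and 7.41 TAG per kb. ESRP1 and TIAL1, not shown, stood further above it than MBNL2, with 15.9 and 17.5 TAG per kb. Each stretch has 30 bases, 5' to 3' on the transcript strand, from GENCODE 29 on GRCh38, with each TAG in capitals.

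HNRNPUL2, chr11:62713232-62713261, minus strand: tTAGtcctgcaaaTAGcatctttcttgTAG

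HNRNPD, chr4:82352673-82352702, minus strand: tgtgttacagtggTAGagttTAGTAGtTAG

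HNRNPA2B1, chr7:26174544-26174573, minus strand: cTAGacactgTAGatgatgttTAGtccTAG

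MBNL2, chr13:97391721-97391750, plus strand: tcaaattTAGcaataaacaatTAGcatTAG

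HNRNPLL, chr2:38562357-38562386, minus strand: attTAGattttaatTAGttTAGatgtgTAG

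The stretches of HNRNPD and HNRNPA2B1 hold 4 TAG each, and so does that of HNRNPLL, which stood on the other side of the empty vector. HNRNPUL2 and MBNL2 have 3 TAG each. Each stretch was picked as the densest of its 3' UTR, and a longer 3' UTR offers more stretches to pick from. The densest stretches of other genes were not compared, so these counts do not show whether they are unusual.

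The second set is the 250 bases before the RefSeq start site of HNRNPA2B1, the member with the highest level, of HNRNPUL2, the member past the fold threshold in the MSI1 library, and of MBNL3, which stood on opposite sides of the empty vector in the SRRM libraries. They come from RefSeq on GRCh38.p14, on the gene's strand, with CCAAT (or ATTGG) and GGGCGG (or CCGCCC) in capitals. The annotations differ in where genes start: the HNRNPA2B1 window lies inside the GENCODE 29 span of the gene, the HNRNPUL2 window overlaps its end by a few bases, and the MBNL3 window lies outside it.

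HNRNPA2B1, chr7:26200747-26200996, minus strand: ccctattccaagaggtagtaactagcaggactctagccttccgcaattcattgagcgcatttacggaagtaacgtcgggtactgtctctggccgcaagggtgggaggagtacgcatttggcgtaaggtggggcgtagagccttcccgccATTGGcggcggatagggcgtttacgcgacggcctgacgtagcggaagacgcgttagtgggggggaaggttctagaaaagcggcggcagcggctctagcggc

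HNRNPUL2, chr11:62727458-62727707, minus strand: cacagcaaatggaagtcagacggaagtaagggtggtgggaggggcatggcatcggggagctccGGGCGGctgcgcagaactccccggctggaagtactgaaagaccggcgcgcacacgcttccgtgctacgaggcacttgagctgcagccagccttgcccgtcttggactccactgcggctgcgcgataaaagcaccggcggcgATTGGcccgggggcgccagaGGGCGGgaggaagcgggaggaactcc

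MBNL3, chrX:132490036-132490285, minus strand: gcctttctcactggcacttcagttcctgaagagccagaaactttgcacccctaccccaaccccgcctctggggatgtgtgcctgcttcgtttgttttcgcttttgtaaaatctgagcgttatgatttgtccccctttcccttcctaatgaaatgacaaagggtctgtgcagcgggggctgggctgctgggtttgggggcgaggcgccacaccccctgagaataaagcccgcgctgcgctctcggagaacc

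HNRNPA2B1 has 59.2% and HNRNPUL2 66.4% G and C in this window. MBNL3 has 56.4% G and C, 11 CG steps and no match to any of the motifs searched. RefSeq promoters were found for 34 of the 40 members, 1 per gene at its outermost listed start, and those of ESRP1, ESRP2, FUBP1, HNRNPA1, KHDRBS3 and QKI were not used here. The 34 had a median of 65.6% G and C and 24 CG steps, against 57.6% and 10 over 27305 promoters. GGGCGG, on either strand, was in 25 of 34 (73.5%) against 42.2% of all, CCAAT in 17 of 34 (50%) against 33.0%, and CCGGAAG in 6 of 34 against 8.78%. TATAAA was in 4 of 34, or 11.8% against 11.2%, and TGACGTCA in 0 of 34 against 1.75% of all. These are matches of letters only. ATTGG and GGGCGG can share bases, but they do not in the stretches shown.

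The members were abundant. Their median level was 86.7 cRPKM, against 10.98 over all genes compared, and 17 of 40 (42.5%) reached a mean of 100 cRPKM, against 5.70% of all. They took 1.33% of all counts in MSI1, 1.46% in SRRM4, 1.44% in SRRM3 and 1.42% in the empty vector. The share was lowest in MSI1. Levels in cRPKM are per length, but the length implied by count and cRPKM was far below the annotated exon length for some genes, 287 of 7355 bases for TIAL1, 517 of 5373 for HNRNPH3 and 1526 of 12199 for MBNL3, so for these a level rests on a small part of the gene.

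**Figure D1:**
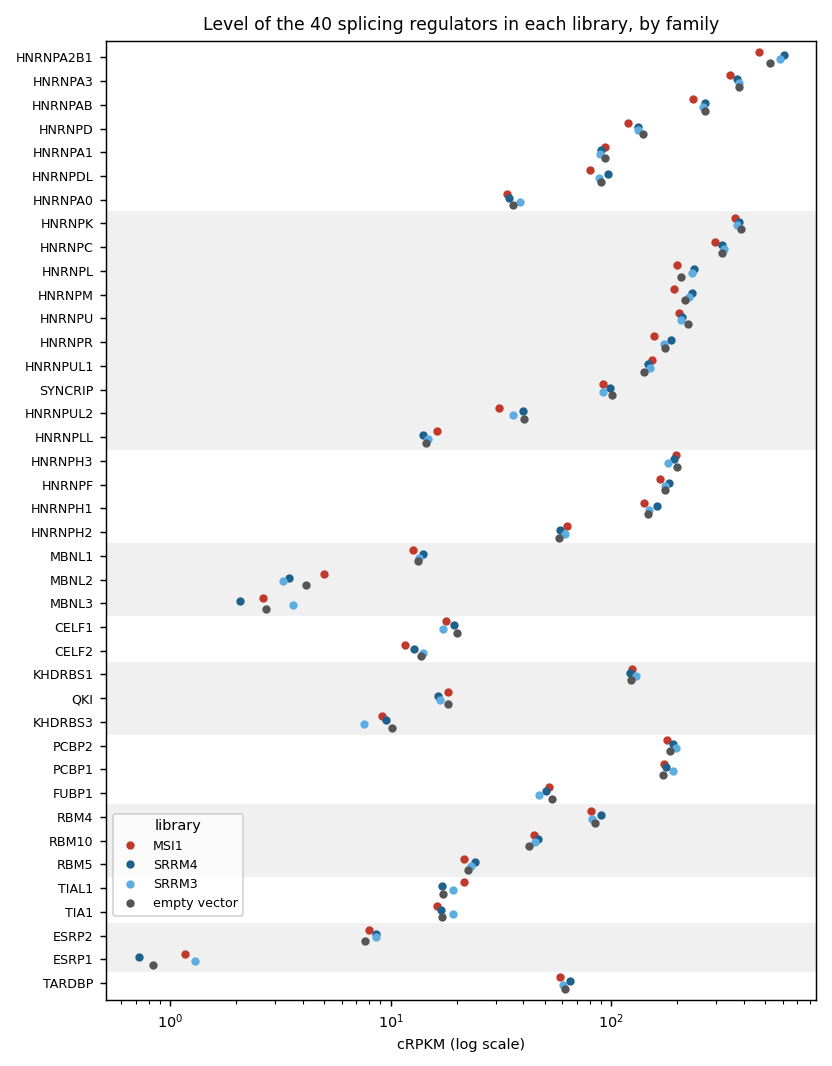
Level of each of the 40 members in cRPKM (log axis) in the MSI1, SRRM4, SRRM3 and empty vector libraries, 1 point per library, grouped by family and ordered by mean level within a family. The points of a gene lie close together for most members, while MBNL3 spans 2.07 to 3.63 cRPKM and ESRP1 0.72 to 1.30 cRPKM.

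The levels moved little among the libraries. The ratio of the highest to the lowest library, with 0.5 cRPKM added to each, had a median of 1.13 over the members and 1.18 over all genes compared. It reached the size used as threshold below in 6 of 40 members (15%), against 31.0% of all. The genes compared were mostly less abundant and were not matched to the members for level, so these shares do not show that the members are unusually stable. That threshold is a log2 fold of at least 0.322 in size, after adding 0.5 cRPKM, and sets a size without testing anything. Ratios are of counts scaled to library totals, and the exact 95% interval after each covers counting error only.

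In MSI1 over the empty vector, which asks what differs when MSI1 is induced, most hnRNP genes were slightly lower and 11 of 40 members, 4 of them with a mean of at least 50 cRPKM, had a log2 fold above 0. HNRNPUL2 alone was lower past the threshold, 1 of 40 members against 4.86% of all genes compared, and 0 of 40 were higher past it, against 7.43%. Both shares were below the background, which was not matched for level. At 1.5-fold it was 0 of 40 in either direction, with 1.72% of all genes higher and 1.16% lower, and at 2-fold 0 of 40, with 0.299% and 0.37%. The median log2 fold of the members was -0.07 and that of all genes was 0.02. Of the members, 29 of 40 (72.5%) had a log2 fold below 0, against 46.1% of all. At this depth 25 of 40 had an interval wholly below 1 (27.6% of all genes) and 7 of 40 wholly above it (32.3% of all). Intervals are narrower for genes with more reads, and the members are more abundant than most genes. Shares of intervals, here and in the other comparisons, are therefore not like for like.

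The hnRNP A/B/D family, whose members bind purine- and AU-rich sequences and often favour exon skipping, had 7 of 7 log2 folds below 0 in MSI1. The share below 0 was 46.1% of all genes and 56.9% of genes with a mean of at least 50 cRPKM. The family had a median of -0.16 and none past the threshold. HNRNPA2B1 (chromosome 7, 26173057 to 26201529) was at 468 cRPKM in MSI1, 609 in SRRM4, 586 in SRRM3 and 527 in the empty vector. MSI1 was the low library and the SRRM libraries the high ones. Its count ratio was 0.887 (0.880 to 0.894) in MSI1, 1.16 (1.15 to 1.16) in SRRM4 and 1.11 (1.10 to 1.12) in SRRM3, all over the empty vector. HNRNPA2B1 shares 368 exon bases with CBX3 on the opposite strand. HNRNPD, also called AUF1, which binds AU-rich elements and hastens decay of the mRNAs that carry them, was at 119 cRPKM in MSI1, 133 in SRRM4, 132 in SRRM3 and 139 in the empty vector. The ratio of HNRNPD in MSI1 was 0.857 (0.841 to 0.872). HNRNPAB stood at 236, 267, 262 and 267 cRPKM and HNRNPA3 at 345, 372, 379 and 379 cRPKM, in the order MSI1, SRRM4, SRRM3 and empty vector, so that the MSI1 library was the low one in both. HNRNPDL, a paralog of HNRNPD with a self-regulated alternative exon, was at 80.5 cRPKM in MSI1, 97.2 in SRRM4, 87.7 in SRRM3 and 89.9 in the empty vector. HNRNPA0, which has a single coding exon, was at 33.9, 34.4, 38.6 and 35.8 cRPKM in the same order. HNRNPA1, the best-studied silencer of the family, lay between 88.7 and 93.9 cRPKM and its ratio in MSI1 was 0.997 (0.976 to 1.02). HNRNPA1 has near copies in the genome, and the annotated copy HNRNPA1L2 had between 44 and 54 reads. Reads of HNRNPA1 lost to other copies were not assessed, so its level may be understated.

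Of the hnRNP C, K, L, M, R, Q and U genes 8 of 10 were below 0 in MSI1, with a median log2 fold of -0.12. Below 0 were also 46.1% of all genes and 56.9% of genes with a mean of at least 50 cRPKM. HNRNPUL2 (ENSG00000214753, chromosome 11, 62712630 to 62727472, minus strand), a paralog of the chromatin-associated HNRNPU, was at 31.0 cRPKM in MSI1, 39.9 in SRRM4, 35.8 in SRRM3 and 40.4 in the empty vector. These are 9887, 12172, 11375 and 12673 reads. MSI1 was the low library, SRRM3 the next, and SRRM4 was within counting error of the empty vector at 0.989 (0.965 to 1.01). Its log2 fold in MSI1 was -0.37, a count ratio of 0.769 (0.749 to 0.789). With the SRRM3 library as the control, the log2 fold of HNRNPUL2 was -0.20, which misses the threshold. HNRNPUL2 shares 2391 exon bases on its strand with the readthrough gene HNRNPUL2-BSCL2, which was not analysed here. HNRNPUL1, its paralog, went the other way, at 154 cRPKM in MSI1, 146 in SRRM4, 151 in SRRM3 and 142 in the empty vector, with the empty vector lowest and a ratio of 1.08 (1.07 to 1.10) in MSI1.

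Others of these families were lower in MSI1 by smaller amounts. HNRNPR and its paralog SYNCRIP (hnRNP Q), which bind AU-rich and poly(A) sequences, had ratios of 0.888 (0.873 to 0.903) and 0.908 (0.889 to 0.927). HNRNPM, which binds GU-rich sites, had 0.893 (0.879 to 0.907) and HNRNPU had 0.911 (0.902 to 0.919). HNRNPC, which binds uridine tracts and keeps cryptic exons out of mRNA, was at 296 cRPKM in MSI1, 319 in SRRM4, 326 in SRRM3 and 320 in the empty vector. Its annotated copy HNRNPCL1 held between 1.54% and 1.69% of the reads of HNRNPC, so the split between the copies is uncertain. HNRNPK, a KH-domain protein for cytosine-rich sequence, was at 365 cRPKM in MSI1, 379 in SRRM4, 373 in SRRM3 and 386 in the empty vector. HNRNPLL, the lymphocyte-associated paralog of HNRNPL, was higher in MSI1, at 16.2 cRPKM against 14.5 for the empty vector. Its ratio was 1.12 (1.07 to 1.17).

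The F/H genes, whose proteins bind runs of G, split in MSI1. HNRNPH3 was at 197 cRPKM in MSI1, 193 in SRRM4, 182 in SRRM3 and 200 in the empty vector. Its mean cRPKM was the highest of the family, but on an implied length of 517 of 5373 annotated exon bases. By reads it was the lowest of the family, with 6401 in MSI1 against 26916 for HNRNPF and 31294 for HNRNPH1. HNRNPF (0.947, 0.931 to 0.963) and HNRNPH1 (0.952, 0.938 to 0.967) were lower in MSI1, and HNRNPH2 was higher (1.10, 1.06 to 1.13), at 63.4 against 57.8 cRPKM in the empty vector.

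Taking the 21 hnRNP genes with SYNCRIP apart from the other 19 members, 18 of 21 had a log2 fold below 0 in MSI1, with a median of -0.11, and 11 of 19 did among the others, with a median of -0.04. The hnRNP genes are also the more abundant ones. Among genes with a mean of at least 50 cRPKM, a floor chosen after seeing the data, 20 of 24 members (83.3%) and 56.9% of 1620 genes were below 0, with medians of -0.08 and -0.02.

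**Figure D2:**
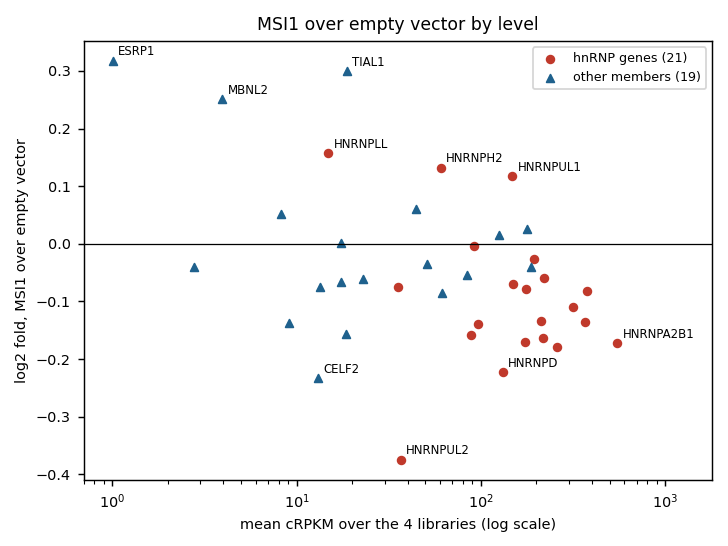
Log2 fold of each member in MSI1 over the empty vector against its mean cRPKM over the libraries (log axis), with the 21 hnRNP genes as circles and the 19 other members as triangles. Most hnRNP genes sit just below 0 at high levels, HNRNPUL2 sits at -0.37, and the 3 highest points are ESRP1, TIAL1 and MBNL2, all under 20 cRPKM.

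The remaining families in MSI1 held lower and higher members. MBNL2, one of the muscleblind proteins that bind motifs with a central GC and drive adult splicing patterns, was at 5.01 cRPKM in MSI1, 3.46 in SRRM4, 3.27 in SRRM3 and 4.13 in the empty vector. MSI1 was the high library and the SRRM libraries were the low ones, with ratios over the empty vector of 1.21 (1.12 to 1.31) in MSI1, 0.838 (0.769 to 0.914) in SRRM4 and 0.793 (0.727 to 0.864) in SRRM3. MBNL1 was at 12.6 cRPKM in MSI1, 14.03 in SRRM4, 13.5 in SRRM3 and 13.3 in the empty vector. The CELF proteins bind GU-rich sequence and oppose MBNL proteins at many exons. CELF1 was at 17.9 cRPKM in MSI1, 19.4 in SRRM4, 17.2 in SRRM3 and 19.97 in the empty vector, and CELF2 was at 11.6, 12.8, 14.01 and 13.7 cRPKM in that order. CELF2 had a ratio of 0.845 (0.816 to 0.875) in MSI1.

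TIAL1, a relative of TIA1 that promotes use of splice sites next to uridine-rich sequence, was at 21.5 cRPKM in MSI1, 17.1 in SRRM4, 19.3 in SRRM3 and 17.3 in the empty vector. It rests on 388 reads in MSI1 and 309 in the empty vector, and the ratio of TIAL1 in MSI1 was 1.24 (1.06 to 1.44). TIA1 was at 16.3, 17.0, 19.3 and 17.1 cRPKM in the order MSI1, SRRM4, SRRM3 and empty vector, with SRRM3 the high library. ESRP1, a regulator of epithelial exons, was at 1.17 cRPKM in MSI1, 0.72 in SRRM4, 1.30 in SRRM3 and 0.84 in the empty vector, or 275, 162, 305 and 195 reads. Its log2 fold of 0.318 in MSI1 lay just under the threshold, and was past it with a pseudocount of 0.1.

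KHDRBS1 (Sam68), with the highest level among the STAR proteins, was at 125 cRPKM in MSI1, 122 in SRRM4, 130 in SRRM3 and 123 in the empty vector, and its ratio in MSI1 was 1.01 (0.992 to 1.03). QKI, which binds ACUAA motifs, was at 18.3 cRPKM in MSI1 and in the empty vector. PCBP2 and PCBP1, KH-domain proteins for cytosine-rich sequence, were at 179 and 174 cRPKM in MSI1 against 184 and 171 in the empty vector. FUBP1, a KH-domain protein first described as a regulator of MYC transcription, was at 52.4 against 53.7 cRPKM. RBM4, RBM5 and RBM10, which act on exons of growth and differentiation genes, had MSI1 ratios of 0.963, 0.958 and 1.04. TARDBP (TDP-43), which represses cryptic exons next to UG repeats, was at 58.5 cRPKM in MSI1, 65.4 in SRRM4, 60.3 in SRRM3 and 62.0 in the empty vector.

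UAG content of the 3' UTR was set beside these folds because of the motif MSI1 is known for. The longest 3' UTR of a principal transcript was used, with a minimum of 100 bases. The 40 members had a median of 15.1 TAG per kb and 11150 genes had 11.2, and 31 of 40 members lay above that median. The members' 3' UTRs were also richer in A and T, with a median of 65.3% against 58.2%. The other 5 orders of the same letters had a mean of 17.8 per kb in the median member and 15.35 in the median gene. Across the 40 members TAG content and log2 fold in MSI1 had a Spearman rho of -0.07 and a Pearson r of -0.06, and across the 11150 genes -0.03 and -0.03. All points share the same pair of libraries. HNRNPC had the densest 3' UTR of the members, with 24.6 TAG per kb, and a log2 fold of -0.11, while RBM10 had 0 TAG in 212 bases and a log2 fold of 0.06. HNRNPUL2 had 16.5 TAG per kb and TIAL1, whose log2 fold was 0.30, had 17.5.

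**Figure D3:**
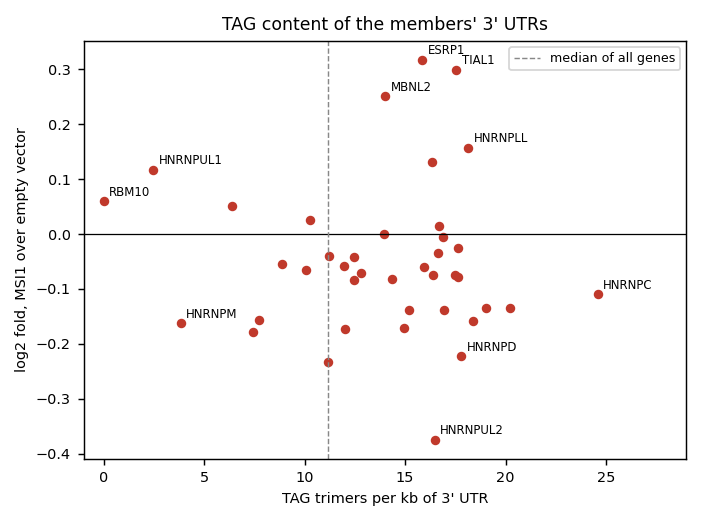
TAG trimers per kb of 3' UTR (x axis) against log2 fold in MSI1 over the empty vector (y axis) for the 40 members, with the median of all genes, 11.2 per kb, as a dashed line. Most members lie to the right of the line, and at like TAG contents the folds run between -0.37 for HNRNPUL2 and 0.32 for ESRP1.

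In SRRM3 over the empty vector, which asks what differs when SRRM3 is induced, MBNL3 and ESRP1 were higher past the threshold, 2 of 40 members against 6.18% of all genes compared, and KHDRBS3 was lower past it, 1 of 40 against 3.75%. The counts were near the background. At 1.5-fold it was 0 of 40 in either direction, with 1.72% of all genes higher and 0.882% lower, and at 2-fold 0 of 40, with 0.582% and 0.299%. The median log2 fold was 0.02 over the members and 0.00291 over all genes, with 15 of 40 intervals above 1 (29.6% of all genes) and 15 of 40 below (28.1%).

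MBNL3 (ENSG00000076770, chromosome X, 132369317 to 132489968, minus strand), the muscleblind gene known mainly from progenitor cells, was at 2.64 cRPKM in MSI1, 2.07 in SRRM4, 3.63 in SRRM3 and 2.73 in the empty vector, or 254, 190, 348 and 259 reads. SRRM3 was the high library, SRRM4 the low one, and MSI1 was close to the empty vector. Its log2 fold was 0.35 in SRRM3, a ratio of 1.33 (1.13 to 1.56), and with a pseudocount of 2 it was 0.25, under the threshold. KHDRBS3 (ENSG00000131773, chromosome 8, 135457457 to 135656722), a STAR protein and relative of Sam68 with a known role in neuronal exons, was at 9.18 cRPKM in MSI1, 9.51 in SRRM4, 7.58 in SRRM3 and 10.2 in the empty vector. SRRM3 was the low library, with a log2 fold of -0.40 and a ratio of 0.747 (0.685 to 0.814). With the MSI1 library as the control, the log2 folds in SRRM3 were -0.26 for KHDRBS3 and 0.11 for ESRP1, neither past the threshold. ESRP1 (ENSG00000104413, chromosome 8, 94641074 to 94707466) had a log2 fold of 0.43 in SRRM3 and a ratio of 1.54 (1.29 to 1.86), and with a pseudocount of 2 its log2 fold was 0.22. Its relative ESRP2 was at 7.97 cRPKM in MSI1, 8.56 in SRRM4, 8.55 in SRRM3 and 7.67 in the empty vector, higher in both SRRM libraries by a ratio of 1.12 (1.05 to 1.19) in SRRM4 and 1.11 (1.05 to 1.19) in SRRM3.

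In SRRM4 over the empty vector, which asks the same of SRRM4, MBNL3 was lower past the threshold, 1 of 40 members against 2.94% of all genes compared, and 0 of 40 were higher past it, against 3.35%. At 1.5-fold it was 0 of 40 in either direction, with 1.2% of all genes higher and 0.638% lower, and at 2-fold 0 of 40, with 0.551% and 0.22%. The median log2 fold was -0.0091 over the members and -0.0035 over all genes. Intervals lay above 1 for 16 of 40 (23.2% of all) and below 1 for 12 of 40 (25.1%). MBNL3 had a log2 fold of -0.33 and a ratio of 0.755 (0.623 to 0.915). With a pseudocount of 2 its log2 fold was -0.22, and with the MSI1 library as the control it was -0.29, neither past the threshold.

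HNRNPL, which binds CA repeats, was at 199 cRPKM in MSI1, 239 in SRRM4, 233 in SRRM3 and 207 in the empty vector, with both SRRM libraries above both others. Its ratio over the empty vector was 1.16 (1.14 to 1.17) in SRRM4 and 1.12 (1.11 to 1.14) in SRRM3. HNRNPA2B1 had the same order of libraries. HNRNPM was at 193 cRPKM in MSI1, 234 in SRRM4, 226 in SRRM3 and 216 in the empty vector, and HNRNPH1 was at 140, 161, 149 and 147 cRPKM in that order. RBM4, RBM5 and RBM10 were higher in SRRM4, with ratios of 1.07 (1.03 to 1.10), 1.08 (1.03 to 1.12) and 1.09 (1.06 to 1.12). RBM4 was at 81.2 cRPKM in MSI1, 90.1 in SRRM4, 82.3 in SRRM3 and 84.3 in the empty vector. It had the highest cRPKM of the 3, but on an implied length of 1344 of 6589 annotated exon bases. RBM4 has 1595 exon bases in common with the readthrough gene RBM14-RBM4. QKI was lower in both SRRM libraries, at 16.5 cRPKM in SRRM4 and 16.8 in SRRM3. PCBP1 and PCBP2 stood at 177 and 190 cRPKM in SRRM4, 192 and 196 in SRRM3 and 171 and 184 in the empty vector, highest in SRRM3. The comparisons of SRRM4 and of SRRM3 share the empty vector library, so they are not independent of each other.

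**Figure D4:**
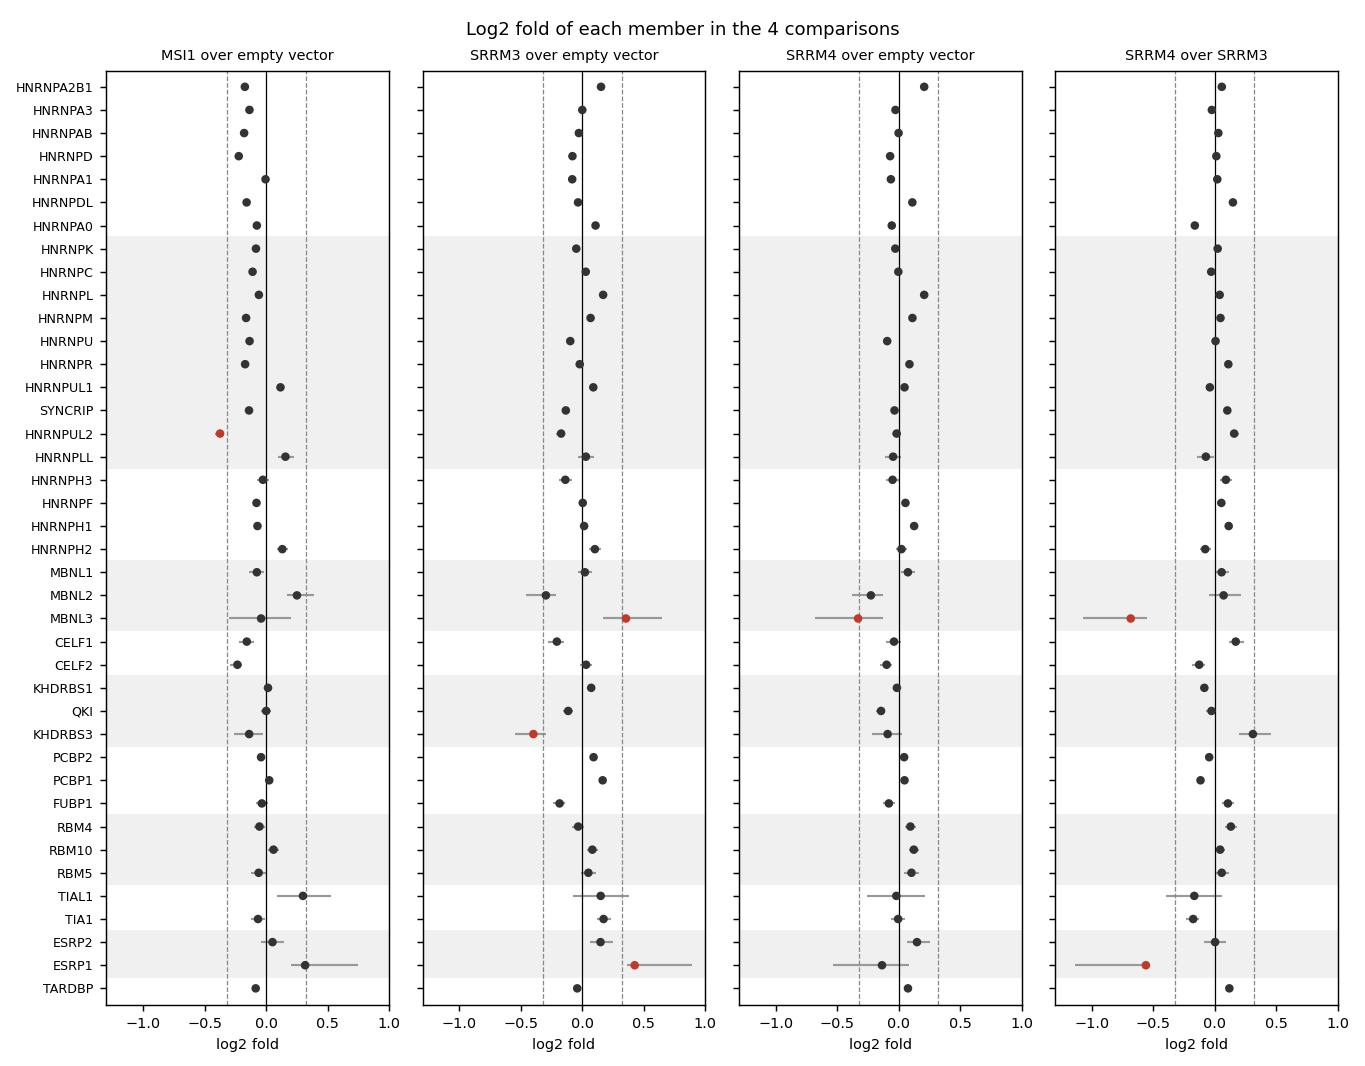
Log2 fold of each member, after adding 0.5 cRPKM, in the 4 comparisons (points), with the 95% counting interval of the plain count ratio as a grey bar, which for low genes reaches further from 0 than the point. Dashed lines mark the threshold of 0.322 on either side of 0 and red points are past it: HNRNPUL2 in MSI1, MBNL3, KHDRBS3 and ESRP1 in SRRM3, MBNL3 in SRRM4, and MBNL3 and ESRP1 in SRRM4 over SRRM3.

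SRRM4 over SRRM3 sets the paralogs against each other without the empty vector. MBNL3 and ESRP1 were lower past the threshold in SRRM4, 2 of 40 members against 6.67% of all genes compared, and 0 of 40 were higher past it, against 3.95%. MBNL3 stood at 2.07 cRPKM in the SRRM4 library and 3.63 in the SRRM3 library, which gives a log2 fold of -0.68 and a ratio of 0.570 (0.475 to 0.682). With 0.5 cRPKM added it was the only member past 1.5-fold in any of the 4 comparisons, 1 of 40 lower here against 1.31% of all genes, with 0 of 40 higher against 0.882%. At 2-fold it was 0 of 40, with 0.276% of all genes higher and 0.236% lower. ESRP1 stood at 0.72 cRPKM in the SRRM4 library and 1.30 in the SRRM3 library, a log2 fold of -0.56 and a ratio of 0.554 (0.455 to 0.673). The count ratio of ESRP1, which has no added value, is further from 1 than that of MBNL3, and with a pseudocount of 0.1 its log2 fold was -0.77. With a pseudocount of 2 the log2 fold of ESRP1 was -0.28, and that of SRRM4 over the empty vector in place of SRRM3 was -0.14. KHDRBS3 was higher in SRRM4, with a log2 fold of 0.31, just under the threshold, and an interval of the ratio of 1.15 to 1.37. HNRNPA0 and TIA1 were lower in SRRM4, with ratios of 0.892 (0.874 to 0.909) and 0.882 (0.848 to 0.917), and CELF1, HNRNPUL2 and HNRNPDL were higher, with 1.13, 1.12 and 1.11. The median log2 fold was 0.03 over the members and -0.0071 over all genes, with 17 of 40 intervals above 1 (27.1% of all) and 13 of 40 below (30.5%).

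Ordering the 4 libraries for each gene uses no shared control, but rests on the same libraries as the folds above and is not independent of them. An order counts however small the gap: QKI was highest in MSI1 at 18.27 cRPKM, against 18.26 in the empty vector. MSI1 was the lowest library for 23 of 40 members (57.5%), against 27.0% of all genes compared, and the highest for 6 of 40, against 34.0%. The 6 were HNRNPH2, HNRNPLL, HNRNPUL1, MBNL2, QKI and TIAL1. The lowest library was SRRM4 for 6 members, SRRM3 for 6 and the empty vector for 5, against 24.9%, 26.7% and 21.3% of all genes. SRRM4 was highest for 13 members (21.3% of all genes), SRRM3 for 9 (26.2%) and the empty vector for 12 (18.5%). Together the SRRM libraries were highest for 22 of 40 (55%) against 47.5%. Among genes with a mean of at least 50 cRPKM, MSI1 was lowest for 17 of 24 members (70.8%) and for 34.8% of 1620 genes, and an SRRM library was highest for 13 of 24 and for 53.3% of the genes. With depth scaled by TMM factors, 25 of 40 members were lowest in MSI1.

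**Figure D5:**
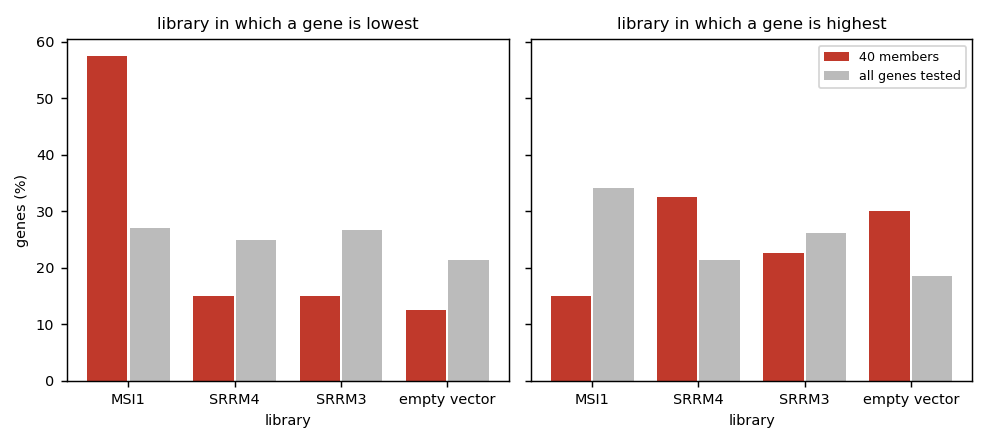
Share of genes (%) for which each library is the lowest (left) or the highest (right) of the 4, for the 40 members (red) and for all genes compared (grey), with bars from 0. MSI1 is lowest for 57.5% of the members and 27.0% of all genes.

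Other genes of the pathway were read from a pair of lists. Of the 40 core spliceosome genes, all passed the filter. In MSI1 30 of 40 had a log2 fold below 0 (75%), against 46.1% of all genes and 56.9% of genes with a mean of at least 50 cRPKM. Their median log2 fold in MSI1 was -0.06, close to the members. In MSI1 0 of 40 were past the threshold in either direction, against 7.43% of all genes higher and 4.86% lower. In SRRM4 over SRRM3 34 of 40 were above 0 and 6 below, or 15% below 0, against 51.3% of all genes and 39.1% of genes with a mean of at least 50 cRPKM. The median was 0.095, and 3 of 40 were higher past the threshold, against 3.95% of all genes. In SRRM3 over the empty vector 1 of 40 was past it lower, against 3.75% of all genes, and 0 higher, against 6.18%. In SRRM4 over the empty vector 0 of 40 were past it in either direction, against 3.35% of all genes higher and 2.94% lower. SNRPB2, a U2 snRNP protein, was at 35.3 cRPKM in MSI1, 39.8 in SRRM4, 30.6 in SRRM3 and 42.5 in the empty vector. PRPF3 (tri-snRNP) and SF3B2 (U2 snRNP) were at 34.0 and 160 cRPKM in SRRM4 against 25.9 and 128 in SRRM3. U2AF1, which recognises the 3' splice site, was at 110 cRPKM in MSI1, 138 in SRRM4, 119 in SRRM3 and 136 in the empty vector. Its levels rest on few reads, 735 in MSI1 and 895 in the empty vector, whereas SF3B2 at 135 cRPKM in MSI1 had 24220.

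Of 37 other splicing regulators, 36 had a value and 26 passed the filter; the 10 that did not were RBFOX1, RBFOX3, NOVA1, NOVA2, ELAVL3, ELAVL4, CELF3, CELF4, CELF5 and KHDRBS2, most of them neuronal. Their median log2 fold was -0.02 in MSI1, 0.04 in SRRM4 and 0.03 in SRRM3 over the empty vector. In MSI1 2 of 26 were higher past the threshold and 2 lower, against 7.43% and 4.86% of all genes. In SRRM4 2 of 26 were higher and 0 lower, against 3.35% and 2.94%. In SRRM3 1 of 26 was higher and 0 lower, against 6.18% and 3.75%. PCBP3, a relative of PCBP1, was at 1.2 cRPKM in MSI1, 1.06 in SRRM4, 2.15 in SRRM3 and 0.48 in the empty vector. These are 163, 138, 291 and 64 reads. Every induced library was above the control, but these comparisons share 1 empty vector library and are not independent. PCBP4 was at 8.38, 6.09, 7.08 and 5.95 cRPKM in that order. EWSR1, an RNA-binding protein, was at 167 cRPKM in MSI1, 220 in SRRM4, 196 in SRRM3 and 168 in the empty vector, with a log2 fold of 0.39 in SRRM4.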

How the data were processed

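Each library's deposited table gives, per Ensembl gene, the authors' cRPKM (a corrected RPKM) and a read count in whole numbers. The submitters' processing notes name the build GRCh38, or hg38. The aligner, counter, annotation, use of strand, and whether a line is a clone or a pool were not given in the sources used here. For 3727 well-covered genes the deposited cRPKM was count over library total times a factor that was the same in every library, to within 0.047%. That factor was not checked against a gene length. Of 41614 genes listed, 1426 had no value and 39633 of the rest had a symbol.

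Folds are log2 ratios of cRPKM after adding 0.5, which understates differences of low genes, over genes with a mean of 1 or more. The induced genes of a comparison were removed from its background. Past the threshold means a log2 fold of at least 0.322 in size. Intervals are exact conditional 95% (Clopper-Pearson) intervals of count ratios; reads are not independent molecules, so they cover counting error only. A count of 3 corresponds to about 0.048 to 0.050 CPM. Depth was 60288244 to 63003121 counts, and no p-value was computed. The folds, threshold and intervals were run on counts simulated with counting error only, for MSI1 over the empty vector. True folds of 1.5 and 2.5 were past the threshold in the right direction for 97 and 99 of 100 genes. Of 12506 unchanged genes, 214 were past it. True folds at the threshold and differences between lines were not simulated.

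Members, lists and tests were chosen with earlier results of these data known. Levels in every library were planned for members past the threshold and for the most abundant of each family; other members, the split of hnRNP genes, the 3' UTR and promoter windows and the floor of 50 cRPKM were chosen after seeing values. From the other lists up to 4 genes with the largest folds are named. One such gene is not reported here. Exons shared with another GENCODE 29 gene occur in 23 of 40 members, on the opposite strand in 17, where reads are uncertain without stated strand use. Alternatives were pseudocounts of 0.1 and 2, filters of none, 5 and 50, centring, CPM with TMM factors, another control, folds of 1.5 and 2, the interval, and the mean. Factors came from edgeR 4.0.16 in R 4.3.3; all else ran in Python 3.11.15 with scipy 1.17.1, pandas 2.3.3, numpy 2.4.6 and matplotlib 3.10.9.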

Additional observations from a re-analysis of the deposited data

Results flagged for a closer look

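MBNL3 lay on opposite sides of the empty vector in the SRRM libraries, each past the threshold. Its log2 fold over the empty vector was -0.33 in SRRM4 and 0.35 in SRRM3, from 190 and 348 reads against 259 in the empty vector. This difference between the libraries was not tested, because no group has replicates.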

How the results depend on the processing

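No paired analysis was possible because each group has 1 library and the labels give no replicate numbers, and for the same reason no library could be left out of a group. Of 132 recomputed counts and medians 93 stayed close to the reported value. The counts past the threshold are small, so single genes move them. With a pseudocount of 0.1, and likewise for CPM with TMM factors, the count was 1 higher in MSI1 (ESRP1), 2 lower in SRRM3 (KHDRBS3 and MBNL2) and 1 higher in SRRM4 over SRRM3 (KHDRBS3). With a pseudocount of 2 it was 0 higher in SRRM3, 0 lower in SRRM4 and 1 lower in SRRM4 over SRRM3. Requiring a mean of at least 5 cRPKM gave 0 for these same 3 counts. With at least 50 cRPKM, chosen after seeing the data, they and the lower counts in MSI1 and SRRM3 were 0, and 13 members were highest in an SRRM library. At 1.5-fold the counts were 0 in every direction over the empty vector and 1 lower in SRRM4 over SRRM3; at 2-fold that was 0 too. With another library as control, the count in MSI1 over SRRM3 was 1 higher (MBNL2) and 2 lower (HNRNPA2B1 and MBNL3). In SRRM4 over MSI1 it was 2 higher (HNRNPA2B1 and HNRNPUL2) and 2 lower (ESRP1 and MBNL2). In SRRM4 over the empty vector in place of SRRM3 it was 1 lower (MBNL3). In SRRM3 over MSI1 the counts stayed the same but the genes changed, to 2 higher (HNRNPA2B1 and MBNL3) and 1 lower (MBNL2). The members' median log2 fold in MSI1 was -0.10 with TMM factors. Over MSI1 in place of the empty vector it was 0.091 in SRRM4 and 0.09 in SRRM3. In SRRM4 it was 0.034 with at least 50 cRPKM, and in SRRM4 over SRRM3 it was -0.0091 with the empty vector as control and -0.0089 for the mean. None of the folds past the threshold reversed under the alternatives run, and 9 of 35 recomputed ones missed the threshold. The causes were not tested. At this depth counting error is a few percent for most members, and MBNL3, TIAL1 and ESRP1, with 162 to 388 reads, are the least certain.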
